A study of Mus musculus with 16 samples.

Results

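Solute carriers are membrane proteins that move nutrients, ions, metals and metabolites into and out of cells and organelles, and 153 of their genes were expressed in brain macrophages and microglia by the rule used here. Genes whose symbol starts with Slc and a number were selected on their FPKM (reads relative to transcript length and to library size, as deposited), with the transcripts of a gene summed. A gene was kept when it reached an FPKM of at least 1 in 8 or more of the 16 libraries, and Slc40a1 and Slc11a1 were left out. Of 357 Slc genes with a count in any library, 153 were members, 89 reached this FPKM in too few libraries and 113 never did. The members belong to 45 families, and they are compared below between populations, genotypes and treatments.

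The libraries come from microglia (CD11b+/CD45low/int) and from a CD11b+/CD45high fraction named macrophages, which by its gate also holds neutrophils and NK cells. The cells were sorted from dissected brains of mice of both sexes, either CD163KO (CD163tm1.1(KOMP)Vlcg) or WT littermates on a C57BL/6N background. All mice received bilateral intrastriatal injections of mouse α-synuclein (α-syn), as monomers (MONO) or as pre-formed fibrils (PFF), at 12 weeks of age, so no group was without α-syn. Cells were taken 2 months p.i. and RNA was sequenced by SMART-seq2, a full-length method for small samples. With 1 library for each combination of population, sex, genotype and treatment, a group of 4 to 7 mice stands behind each library. Triplicates were sequenced according to the methods, and whether a library is 1 of them or their pool is not stated, so p-values measure only the spread between these libraries. The study excluded the male CD163KO MONO samples, and the fits therefore used 14 libraries, 7 per population. Total estimated counts ranged from 12170686 to 21433841 (macrophages) and from 8648751 to 18768238 (microglia).

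As background, plasma membrane carriers supply sugars, amino acids, vitamins and metals, while carriers of lysosomes, the Golgi and mitochondria pass these on inside the cell. Many amino acid carriers are a light chain bound to the heavy chain Slc3a2. Microglia are known for high expression of the fructose transporter Slc2a5, and neutrophils and activated macrophages for a glycolytic metabolism that takes up glucose and releases lactate.

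Before the members are described, libraries that stood apart have to be named. The 10 most abundant genes took 39.6% to 64.0% of the counts in 6 macrophage libraries and 13.5% to 16.4% in 6 microglia libraries. In the male WT PFF and male CD163KO MONO combinations this was the other way round, with 16.5% in both macrophage libraries and 58.7% and 47.7% in the microglia libraries. The 8 microglia markers summed to FPKM of 15450 to 41310 in microglia and 1110 to 2476 in macrophages, and the 8 neutrophil markers to 20490 to 122700 in macrophages and 812 to 2318 in microglia, so the population labels held in these libraries too. Markers of border-associated macrophages (8 genes) summed to 1475 to 4285 in macrophages and 9.72 to 123 in microglia, and those of monocytes (5 genes) to 292 to 2872 and 7.52 to 76.9. Choroid plexus markers (8 genes) varied most among the macrophage libraries, from 84.9 to 12620, with the highest sum in that of female WT MONO. Cd163 had 748 to 5275 counts in WT macrophages and 0 or 1 in CD163KO macrophages, and it did not separate the genotypes in microglia, where it had 0 to 101 counts. The library labelled Microglia female CD163KO MONO held 799 counts of 4 Y-linked genes, against at most 2 in the other female libraries. The part of these differences in the results below was not tested, except where values with and without a library are given.

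The summed level of the members depended on the scale. As deposited, the 153 genes summed to FPKM of 888, 1598 and 2975 (lowest, median and highest of 7 macrophage libraries) and of 1693, 4888 and 5076 in microglia. The libraries in which few genes took most counts had the lowest sums. When FPKM were divided by the TMM factor of the library (trimmed mean of M values, which sets the bulk of genes equal), the sums were 2034, 2075 and 2469 in macrophages and 2579, 3016 and 3671 in microglia. The groups no longer overlapped, and the libraries of a population lay closer together. Of the 153 genes, 29 reached the FPKM of the rule in fewer than 4 macrophage libraries and 1 in fewer than 4 microglia libraries. A higher sum in microglia was thus partly built into the selection. All levels below are on this scaled FPKM unless named as deposited, and in bulk RNA fewer expressing cells and less RNA per cell cannot be told apart.

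**Figure D1:**
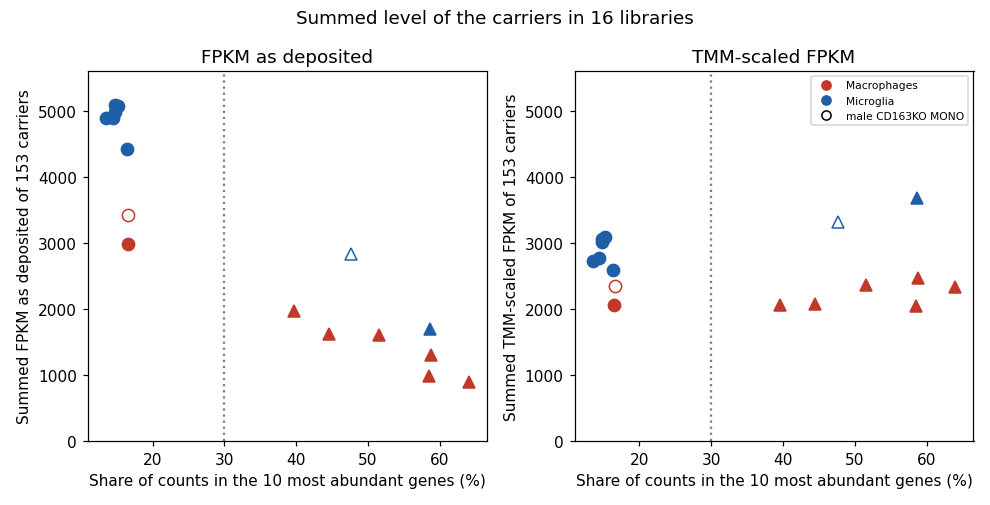
Summed level of the 153 carriers in each of 16 libraries (vertical axis) against the share of counts in the 10 most abundant genes (horizontal axis, %), with FPKM as deposited on the left and TMM-scaled FPKM on the right. Circles are libraries under 30% and triangles over 30%, and on the right every microglia library lies above every macrophage library of the fits. This difference was partly built into the selection of the carriers.

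A few genes carried much of this sum. The mitochondrial ADP/ATP carrier Slc25a5 had the highest deposited FPKM in both populations, 509 ± 182 (SD, n = 8) in macrophages and 753 ± 220 in microglia. Slc3a2, the shared heavy chain of amino acid exchangers, followed among amino acid carriers with 86.6 ± 23.5 and 226 ± 32.8. Both genes together made up 19.2% to 49.4% of the summed FPKM of the members in macrophages and 15.2% to 43.0% in microglia. Slc39a1, a zinc importer, led the metal carriers in both populations, at 53.9 ± 44.1 and 185 ± 108. In sugar transport the leader differed by population, with Slc50a1 at 25.4 ± 10.4 in macrophages and Slc2a5 at 287 ± 87.2 in microglia. In Golgi transport the leaders were Slc35a4 at 22.95 ± 18.9 in macrophages and Slc35b2, which carries the sulfate donor PAPS, at 102 ± 47.8 in microglia. Among monocarboxylate carriers Slc16a3 led in macrophages (19.2 ± 14.3) and Slc16a6 in microglia (45.8 ± 19.9). The remaining role groups had the same leader in both populations, among them the nucleoside transporter Slc29a1 (54.9 ± 19.2 in macrophages, 79.8 ± 32.6 in microglia) and the endosomal sodium/proton exchanger Slc9a9 (27.1 ± 21.0 and 42.7 ± 19.6).

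Detection was uneven between the populations. Of the 153 members, 50 reached a deposited FPKM of 1 in all 16 libraries, 114 in all 8 microglia libraries and 55 in all 8 macrophage libraries. These counts use the values of the selection rule. The imbalance was not particular to members, since 6256 to 8855 of all genes reached it in a macrophage library and 7285 to 10906 in a microglia library. The calcium exchanger Slc24a3 reached it in all 8 microglia and in none of the macrophage libraries. A total of 123 members reached it in at least 4 libraries of each population, 29 in fewer than 4 macrophage libraries and 1, the urea transporter Slc14a1, in fewer than 4 microglia libraries. Members of the last 2 kinds were selected through the population in which they are high, so a difference between populations was built into their selection. Just inside the rule, with 8 libraries, lay Slc7a10, Slc10a7, Slc16a1, Slc16a7, Slc16a13, Slc20a2, Slc24a3, Slc25a18, Slc25a22, Slc25a23, Slc30a1, Slc35a3 and Slc39a12. Their median deposited FPKM over 16 libraries ran from 0.70 to 1.64. Just outside, with 7 libraries, lay Slc5a10, Slc6a13, Slc7a1, Slc7a4, Slc18a2, Slc25a26, Slc26a6, Slc30a4, Slc35e4, Slc38a3, Slc39a8 and Slc43a3, with medians from 0.32 to 0.90. Of these, the GABA transporter Slc6a13 reached an FPKM of 1 in 7 macrophage and no microglia libraries.

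The first comparison asked how carriers differ between microglia and macrophages, over sexes, genotypes and treatments. In edgeR's quasi-likelihood test with Benjamini-Hochberg adjustment over 11691 genes, a change was called at an adjusted p of at most 0.05 and a log2 fold change of at least 1. By this rule 17 of 153 members (11.1%) were higher in microglia, against 8.4% of all genes tested, and 12 members (7.84%) were higher in macrophages, against 14.2% of all genes. These counts include 3 members for which the selection fixed the direction, Slc24a3 and Slc36a1 (higher) and Slc14a1 (lower). The members are therefore also described without the 30 selected through 1 population. Of the 123 detected in at least 4 libraries of each population, 15 (12.2%) were called higher and 11 (8.94%) lower in microglia, against 6.96% and 16.4% of the 7519 tested genes detected in the same way. The median log2 fold change (microglia minus macrophages) was 0.41 over these 123 members and -0.085 over these genes, with positive values in 80 members (65.0%) and 46.9% of the genes. Scaled FPKM did not overlap between the 7 libraries of each population for 19 of the 123 that were higher in microglia, against 8.79% of the genes, and for 4 that were higher in macrophages, against 8.26%. Without scaling of library composition the picture shifted, since the median of all genes then moved to 1.65: 77 members were called higher in microglia, against 38.9% of all genes, and 1 lower, against 4.95%, of which 61 and 1 were among the 123 detected in both. The statements below are therefore relative to the bulk of genes. Counts among the 123 in other settings than the main fit stand without a share over genes detected in the same way.

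**Figure D2:**
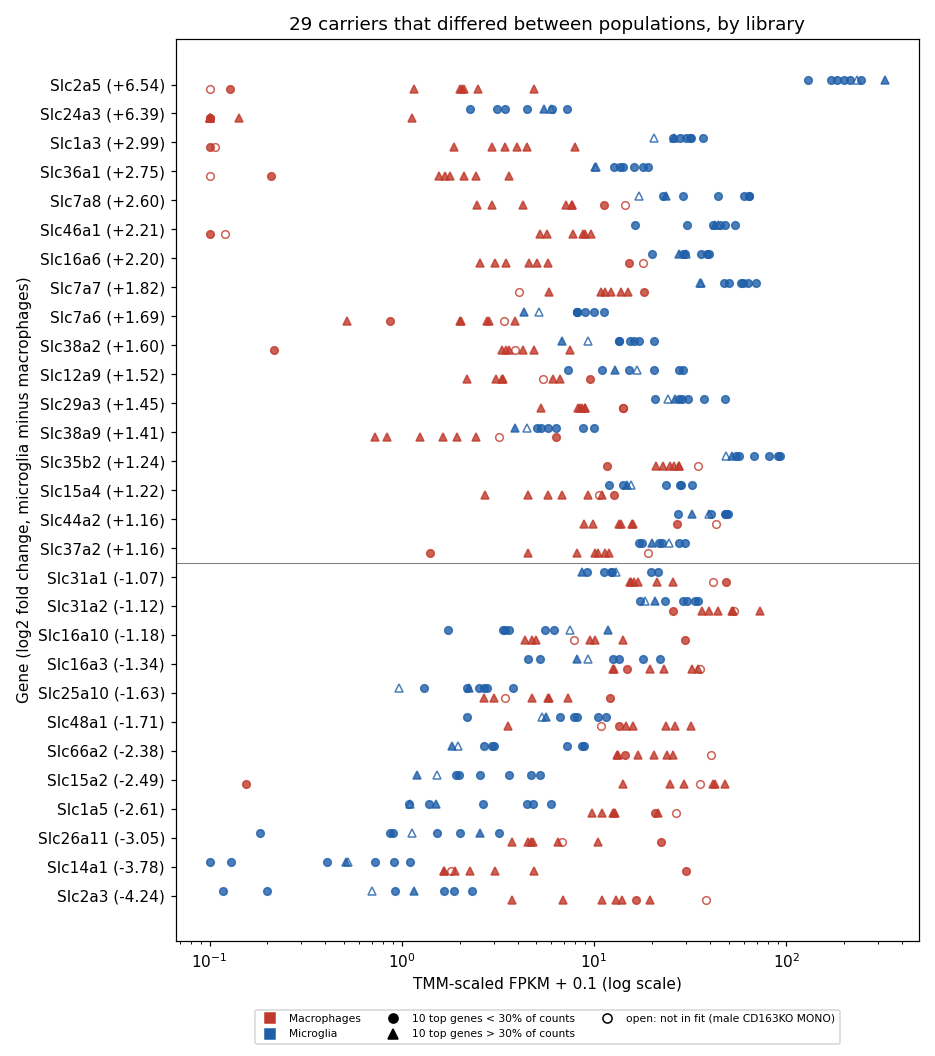
TMM-scaled FPKM plus 0.1 (log axis) of the 29 carriers that passed the test between populations, 1 row per gene with its log2 fold change (microglia minus macrophages) in brackets, and 1 point per library. Blue is microglia and red macrophages, circles and triangles mark libraries under and over 30% of counts in the 10 top genes, and open symbols are the male CD163KO MONO libraries outside the fit. Slc2a5 is the most separated gene, from at most 4.76 in macrophages to at least 130 in microglia.

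Sugar carriers gave the largest differences in both directions. Slc2a5, the fructose transporter, had scaled FPKM of 0.0276, 1.95 and 4.76 (lowest, median, highest of 7) in macrophages and 130, 200 and 324 in microglia. All microglia libraries were far above all macrophage libraries, with a log2 fold change of 6.54 ± 0.75 (SE, adjusted p = 1.9e-05). Slc2a3, a high-affinity glucose transporter of neurons and leukocytes, had 3.62, 12.96 and 19.4 in macrophages and 0.0170, 1.06 and 2.23 in microglia. Its groups did not overlap either, and its log2 fold change was -4.24 ± 0.83 (adjusted p = 0.0017). Slc2a1, the ubiquitous glucose transporter, did not pass, with medians of 14.7 and 17.2 and a log2 fold change of 0.00285 ± 0.36. Slc50a1, a Golgi and plasma membrane sugar transporter, was at 0.43 ± 0.28 and did not pass.

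Amino acid and peptide carriers were the group with most called members, 8 higher and 3 lower in microglia of 23, against 8.4% and 14.2% of all genes, with Slc36a1 among the 8. Slc7a8 and Slc7a7, light chains for neutral and for cationic amino acids, had macrophage medians of 7.03 and 12.2 and microglia medians of 43.8 and 58.2. Neither overlapped between populations (log2 fold changes 2.60 ± 0.31 and 1.82 ± 0.23, adjusted p = 3.2e-05 and 5.8e-05). Slc1a3, a glutamate transporter best known from astrocytes, ran from 0 to 7.85 in macrophages and from 25.6 to 36.6 in microglia, a log2 fold change of 2.99 ± 0.74 (adjusted p = 0.0082). The summed astrocyte markers had deposited FPKM of 11.5 to 70.3 in macrophages and 21.6 to 76.0 in microglia, and their part in the value of Slc1a3 was not tested. Slc36a1, a lysosomal proton-coupled amino acid exporter, ran from 0.111 to 3.51 in macrophages and from 9.99 to 18.97 in microglia, a difference built into its selection.

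The other higher members of the group were Slc7a6 (log2 fold change 1.69 ± 0.48), Slc38a2 (1.60 ± 0.53), Slc38a9 (1.41 ± 0.48) and Slc15a4 (1.22 ± 0.34). Slc38a9 is an arginine sensor of lysosomes, Slc15a4 a lysosomal carrier of histidine and peptides, and Slc38a2 a sodium-coupled importer of small neutral amino acids. Members higher in macrophages were the neutral amino acid exchanger Slc1a5, the peptide importer Slc15a2 and the aromatic amino acid carrier Slc16a10. Slc1a5 ran from 9.67 to 21.3 in macrophages and from 0.988 to 5.86 in microglia, without overlap (-2.61 ± 0.46, adjusted p = 0.00067). Slc15a2 had a macrophage median of 29.2 with 48.02 at the highest, but 0.0552 in the male WT PFF macrophage library, and 1.11 to 5.12 in microglia (-2.49 ± 0.73, adjusted p = 0.022, and 0.099 with the matched populations of a combination as blocks). Slc16a10 overlapped (4.29 to 29.5 in macrophages, 1.63 to 11.7 in microglia, -1.18 ± 0.35), and its sign turned to 0.17 without scaling.

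Slc3a2 was level by the main fit, with scaled medians of 128 and 138 and a log2 fold change of -0.0228 ± 0.33. Its deposited FPKM did not overlap, however, with 61.8 to 130 in macrophages and 155 to 257 in microglia. The scaled value was 337 in the male WT PFF microglia library, against 119 at the lowest. When only libraries under 30% were compared (6 microglia, 2 macrophage), or only those over 30% (2 and 6), Slc3a2 passed with log2 fold changes of 1.20 and 1.14. In both sets the side of 2 libraries is male WT PFF and male CD163KO MONO, of which the study excluded the latter. Neither fit had terms for sex, genotype or treatment. With the profile as a term over all 16 libraries the value of Slc3a2 was 1.04.

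For 2 called light-chain genes on the same chromosome, Slc7a7 and Slc7a8, a promoter window of RefSeq (GRCm38.p6, 250 bases before to 50 after the start) is shown. The windows shown lie 371.7 kb apart on chromosome 14. Capitals mark GAGGAA or its reverse complement TTCCTC, the core letters bound by the myeloid factor PU.1. These windows, chosen after their values were seen, are printed because both genes are higher in microglia and both hold the core. For Slc7a7 the window with most matches was taken, and another of its windows has 0.
Slc7a7, minus strand, chr14:54410154-54410453: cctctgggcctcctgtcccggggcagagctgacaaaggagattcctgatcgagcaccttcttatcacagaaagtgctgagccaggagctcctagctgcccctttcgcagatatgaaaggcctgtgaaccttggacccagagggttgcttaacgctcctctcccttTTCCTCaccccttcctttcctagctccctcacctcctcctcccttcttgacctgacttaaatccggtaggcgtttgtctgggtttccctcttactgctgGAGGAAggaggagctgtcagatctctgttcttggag
Slc7a8, minus strand, chr14:54781837-54782136: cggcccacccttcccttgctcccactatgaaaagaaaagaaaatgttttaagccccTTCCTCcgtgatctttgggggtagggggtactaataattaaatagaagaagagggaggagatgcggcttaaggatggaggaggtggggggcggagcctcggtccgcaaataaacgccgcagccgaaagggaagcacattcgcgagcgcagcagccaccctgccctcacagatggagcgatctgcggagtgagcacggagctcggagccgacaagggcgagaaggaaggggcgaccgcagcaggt
Positions count from the start site, and the core stands at -85 and 15 in this window of Slc7a7, 1 of 5 annotated, and at -194 in Slc7a8. Searched on both strands, the core was in a window of 4 of 16 members higher in microglia (25.0%), of 1 of 6 higher in macrophages (16.7%) and of 2949 of 9520 tested genes with a window (31%). A gene counted when any of its windows held the core, so genes with several windows had more chances. Windows were matched for 118 of 153 members, for 16 of the 17 higher and 6 of the 12 lower in microglia, and those of 1 chromosome were not used. A match of letters is no evidence of binding.

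Ion carriers included the calcium exchanger Slc24a3, with a deposited FPKM under 1 in all macrophage libraries. Its scaled FPKM had a median of 0 and a highest value of 1.03 in macrophages and ran from 2.17 to 7.17 in microglia, a difference built into its selection. The orphan cation-chloride family member Slc12a9 was also higher in microglia (1.52 ± 0.38). Slc26a11, an anion exchanger that carries sulfate, was at 3.63, 4.74 and 22.1 in macrophages and 0.0817, 1.43 and 3.10 in microglia, without overlap (-3.05 ± 0.61). The other 15 ion carriers did not pass in the main fit. DESeq2 called Slc12a2 and Slc8a1, and Slc12a2 was also called with the matched populations of a combination as blocks.

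Among carriers of vitamins, heme and choline, 2 of 10 were higher and 1 lower in microglia, beside the same shares of 8.4% and 14.2% of all genes. Slc46a1, which imports folate and heme, had a median of 7.68 in macrophages, with 0 in the male WT PFF library, and of 42.4 in microglia (2.21 ± 0.75, adjusted p = 0.043). Per the methods both populations were sorted from dissociated brains, but whether the libraries of a combination share mice is not stated. In female CD163KO MONO the Y-linked genes had 799 counts in microglia and 0 in macrophages. With the libraries of a combination as blocks the call of Slc46a1 was lost (2.39, edgeR, adjusted p = 0.076). The choline transporter-like gene Slc44a2 had medians of 13.6 and 48.03 (1.16 ± 0.24). Slc48a1, which brings heme out of lysosomes, was higher in macrophages with medians of 15.8 and 7.80 and overlapping ranges (-1.71 ± 0.41, adjusted p = 0.0066). The organic ion group held the endoplasmic sugar phosphate exchanger Slc37a2 (1.16 ± 0.38) and the urea transporter Slc14a1. Slc14a1 lay at 1.55 to 4.76 in 6 macrophage libraries and at 29.9 in that of male WT PFF, against at most 1.00 in microglia, a difference built into its selection.

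Monocarboxylate carriers pointed both ways. Slc16a6 was higher in microglia (median 29.6 against 4.51, log2 fold change 2.20 ± 0.38). Slc16a3, the lactate exporter of glycolytic cells, was higher in macrophages (medians 19.3 and 12.5, -1.34 ± 0.40, adjusted p = 0.024), but overlapped between populations and stood at 0.28 without scaling. Its chaperone Bsg did not pass (-0.39 ± 0.31), and Emb, the other chaperone of this family, ran from 31.1 to 75.7 in macrophages and from 0 to 2.22 in microglia (-6.17 ± 0.77). Of the nucleoside carriers the lysosomal Slc29a3 was higher in microglia (1.45 ± 0.22), and Slc29a1 had an adjusted p of 0.033 with a fold below the threshold (-0.75 ± 0.24). In the Golgi group Slc35b2 alone passed of 17 (1.24 ± 0.23, medians 24.8 and 67.6), against 8.4% of all genes higher and 14.2% lower. The gene Slc66a2 was higher in macrophages, without overlap (12.98 to 25.5 against 1.71 to 8.81, -2.38 ± 0.36).

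**Figure D3:**
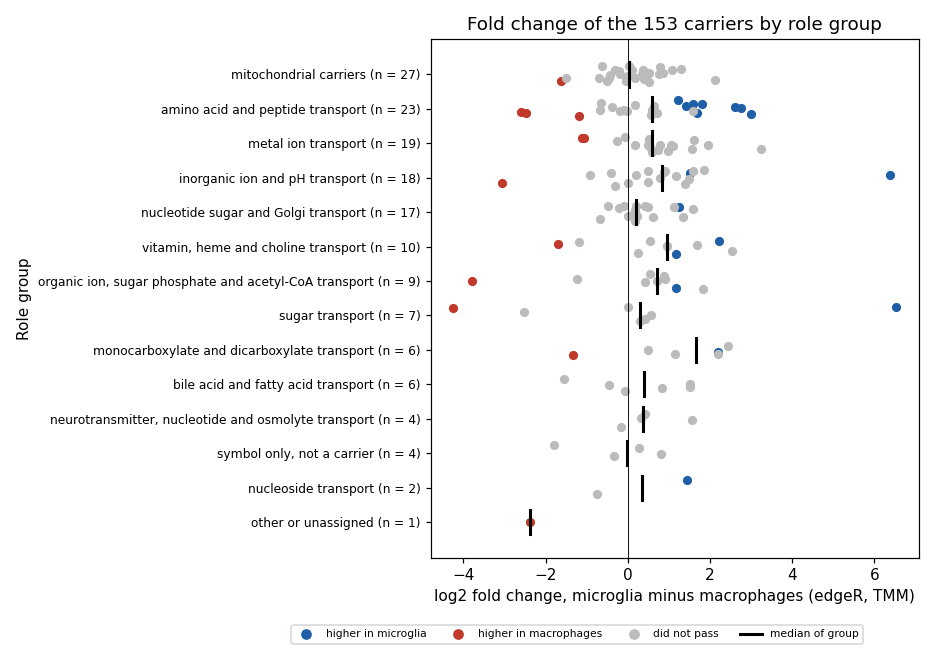
Log2 fold change (microglia minus macrophages, horizontal axis) of each of the 153 carriers by role group, with the group median as a black bar. Blue and red points passed the test. Amino acid carriers hold 8 of the 17 blue points, and the 27 mitochondrial carriers centre near 0 with a median of 0.0322.

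Mitochondrial carriers were the largest group, and 1 of 27 passed, against 8.4% of all genes higher and 14.2% lower in microglia. The dicarboxylate carrier Slc25a10 was higher in macrophages (medians 5.67 and 2.41, log2 fold change -1.63 ± 0.43). Slc25a5 had scaled medians of 653 and 511, with 322 in the macrophage and 1109 in the microglia library of male WT PFF, and did not pass (-0.70 ± 0.40). The phosphate carrier Slc25a3 (-0.45 ± 0.20, adjusted p = 0.13) and the iron importer of mitochondria, Slc25a37 (2.12 ± 0.76, adjusted p = 0.055), did not pass the main fit either. Slc25a37 did not overlap between populations. It was called by DESeq2, with all libraries, with the profile term and without the male WT PFF macrophage library. No member of the bile and fatty acid group (6) or of the neurotransmitter and osmolyte group (4) passed in the main fit. DESeq2 called Slc27a1 of the former and Slc18b1 of the latter. The leading members of these groups by FPKM were Slc10a3 (0.84 ± 0.52) and the taurine importer Slc6a6 (-0.16 ± 0.28). In addition, 4 genes carry an Slc symbol without being carriers (Slc4a1ap, Slc7a6os, Slc9a3r1 and Slc9a3r2), and none of them passed.

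All 19 metal carriers are given. In microglia none was called higher and 2 were called lower, both for copper, against 8.4% and 14.2% of all genes. This picture depended on the tool. DESeq2 called Slc11a2, Slc39a1, Slc39a7, Slc39a12 and Slc41a3 higher, against 16% of all genes, and did not call Slc31a1. Slc31a1, the plasma membrane copper importer, had 15.2, 16.9 and 48.3 in macrophages and 8.499, 12.1 and 21.4 in microglia (-1.07 ± 0.30, adjusted p = 0.018). Its fold fell short of the threshold with DESeq2 (-0.96) and without the male WT PFF library of macrophages (-0.83) or of microglia (-0.95). Among libraries over 30% it was not called either (-0.81). Slc31a2, its endosomal relative, had 25.7, 44.1 and 73.2 in macrophages and 17.3, 28.9 and 34.5 in microglia (-1.12 ± 0.25, adjusted p = 0.0037). Both overlapped between populations, both turned to 0.33 without scaling, and their start sites lie 74.3 kb apart on chromosome 4.

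Zinc importers of the Slc39 family did not pass in the main fit. Slc39a7, which releases zinc from the endoplasmic reticulum and Golgi, came closest, with 16.4 to 30.7 in macrophages and 46.3 to 86.6 in microglia, no overlap and an adjusted p of 0.0045, but a log2 fold change of 0.97 ± 0.22, below the threshold. Slc39a1 ran from 16.1 to 70.4 in macrophages and from 74.3 to 305 in microglia (1.06 ± 0.40, adjusted p = 0.067). Slc39a12 had medians of 0.733 and 4.38, a difference built into its selection, since it reached an FPKM of 1 in 1 macrophage and 7 microglia libraries. The remaining importers had log2 fold changes of 1.60 (Slc39a9), 0.78 (Slc39a13), 0.53 (Slc39a11), 0.49 (Slc39a3), 0.18 (Slc39a10) and -0.063 (Slc39a4), and Slc39a6 was also selected through microglia.

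Zinc exporters of the Slc30 family had values of 1.10 (Slc30a9), 0.59 (Slc30a5), 0.54 (Slc30a7) and -0.25 (Slc30a6), none past the test. Slc30a1, the exporter of the plasma membrane, was selected through microglia and near the detection rule, with medians of 0.796 and 1.22. The iron and manganese importer Slc11a2 (1.56 ± 0.77, adjusted p = 0.16) and the magnesium carrier Slc41a3 (1.95 ± 1.07) did not pass, and both were at 0 in the male WT PFF macrophage library. Metal storage genes outside the carriers were measured as well. The zinc-binding metallothionein Mt1 ran from 263 to 858 in macrophages and from 67.4 to 203 in microglia (-2.86 ± 0.36), Mt2 was at -3.54 ± 0.78, and the ferritin subunits Fth1 and Ftl1 were at -2.77 ± 0.50 and -3.83 ± 0.87.

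These genes belong to a list of 42 partners and other transporters, of which 39 were tested. In microglia 5 were higher (the organic anion transporters Slco2b1 and Slco4a1, the lipid exporter Spns2, Ireb2 and Myc) and 7 lower (Emb, Mpc2, Ucp2, Fth1, Ftl1, Mt1 and Mt2), against 8.4% and 14.2% of all genes. Slco2b1 ran from 25.8 to 46.8 in macrophages and from 172 to 384 in microglia (2.39 ± 0.27, adjusted p = 1.7e-05). The list's median log2 fold change was 0.30, against 0.15 over all genes.

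The libraries of unlike profile were then set apart. The smaller side of each set is male WT PFF and male CD163KO MONO, of which the study excluded the latter. The fits of these sets had no terms for sex, genotype or treatment. Among libraries under 30% alone, 28 members were higher in microglia, against 16.4% of all genes, and 8 lower, against 8.67%. Among libraries over 30% alone, none of them shared with the first set, 22 were higher, against 9.56% of all genes, and 11 lower, against 11.7%. These counts hold members selected through 1 population, and among the 123 detected in both they were 16 and 7 under 30% and 17 and 10 over 30%. No share over genes detected in the same way stands beside the counts among the 123, so they are not read as a trait of carriers. Of the 29 called members, which were chosen on these same libraries, 17 and 22 passed. Leaving aside Slc14a1, Slc24a3 and Slc36a1, members that passed in both were Slc1a3, Slc2a5, Slc3a2, Slc7a7, Slc7a8, Slc29a3 and Slc46a1 in microglia and Slc1a5, Slc2a3, Slc26a11 and Slc66a2 in macrophages. With the profile as a term over all 16 libraries, 14 of the 17 and 11 of the 12 passed, and the calls of Slc15a2, Slc15a4, Slc38a9 and Slc44a2 were lost. Without the male WT PFF macrophage library, which lists only 9524 transcripts and has 38 members at 0, 35 members were called higher, against 15.7% of all genes, and 12 lower, against 17.6%. Of these, 24 and 11 were among the 123 detected in both, again without a share over genes detected in the same way. The calls of Slc16a10, Slc31a1 and Slc37a2 were lost (log2 fold changes -0.92, -0.83 and 0.89).

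When each of the 14 libraries was left out in turn, 12 of the 17 higher and 7 of the 12 lower members passed every time. Slc25a10 was lost without the macrophage library of female CD163KO MONO (adjusted p = 0.052) and Slc15a4 without the microglia library of male CD163KO PFF (0.051). Slc15a2 was lost without the macrophage libraries of female WT PFF or male WT MONO or the microglia library of male CD163KO PFF. Slc31a1 was also lost without the macrophage library of female CD163KO PFF or the microglia library of male CD163KO PFF. Slc16a10 was also lost without the macrophage library of female CD163KO MONO or the microglia libraries of female CD163KO PFF or female WT PFF. Slc16a3 was lost in 5 of the 14 cases, Slc37a2 and Slc38a9 in 10, Slc38a2 in 11 and Slc46a1 in 12. Their adjusted p reached at most 0.0946, 0.0811, 0.114, 0.0822 and 0.091, and their signs stayed the same. Of the genes higher in microglia, Slc1a3, Slc2a5, Slc24a3 and Slc36a1 had their highest macrophage value in the female WT MONO library, the one with the highest sum of choroid plexus markers, and the part of such cells in these values was not tested.

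**Figure D4:**
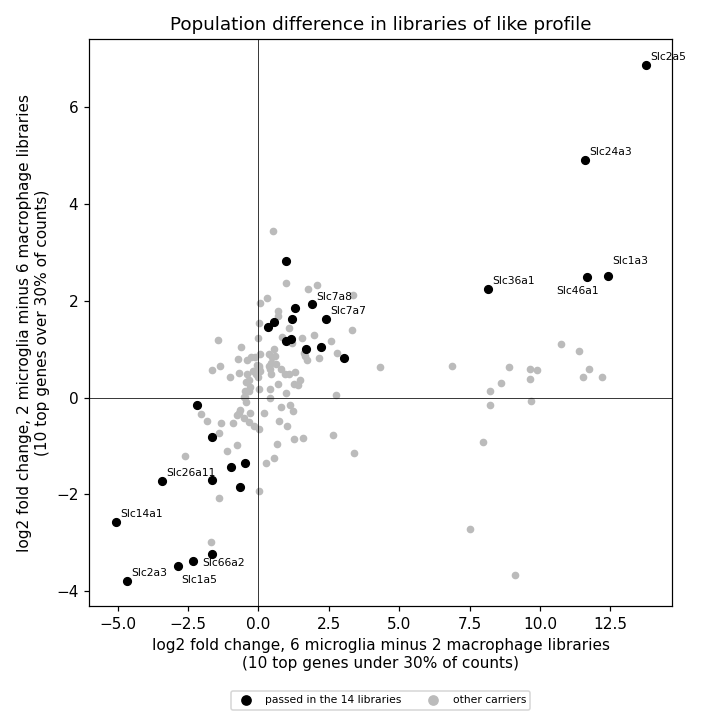
Log2 fold change (microglia minus macrophages) of 152 carriers in libraries under 30% of counts in the 10 top genes (horizontal axis) against libraries over 30% (vertical axis). Black points passed the test in the 14 libraries, which make up most of both sets. The smaller side of each set is male WT PFF and male CD163KO MONO. Horizontal values beyond about 7 belong to genes at or near 0 in both macrophage libraries.

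The second comparison asked whether deletion of Cd163, the scavenger receptor for hemoglobin-haptoglobin, changes carriers. No member was called in either population by edgeR, DESeq2 or limma. All genes tested gave 0% higher and 0.00944% lower calls in macrophages and 0% in both directions in microglia. At an unadjusted p under 0.05 there was 1 of 151 members in macrophages (0.662%, against 0.708% of all genes) and 1 of 153 in microglia (0.654%, against 1.23%). In macrophages 2 members of low count, Slc24a3 and Slc25a18, were not tested. The median SE of a member was 1.32 on the log2 scale in macrophages and 0.43 in microglia, so the error was larger in macrophages.

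In macrophages the member of lowest p was Slc2a1, the glucose transporter of blood-brain barrier endothelium and many other cells. Among WT libraries the females had 17.7 after MONO and 40.3 after PFF and the males 9.56 and 23.3, and CD163KO libraries 4.84 (female MONO), 14.7 (female PFF) and 5.42 (male PFF). The groups overlapped, and in each of the 3 pairs of like sex and treatment the CD163KO library was lower. The log2 fold change (CD163KO minus WT) was -1.80 ± 0.44 (edgeR, adjusted p = 1), between -1.89 and -1.68 when each library was left out, and the library outside the fit had 2.09. The 6 endothelial markers summed to deposited FPKM of 40.9 to 156 in WT and 12.1 to 38.9 in the CD163KO libraries of the fit, and their part in the value of Slc2a1 was not tested. The next lower members were Slc49a4 (-2.40 ± 1.04) and Slc22a17, a receptor for lipocalin (-1.67 ± 0.87). Those of lowest p in the other direction were Slc25a5 (0.69 ± 0.38), Slc30a9 (1.74 ± 1.19) and Slc9a9 (0.54 ± 0.38).

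In microglia the lactate and ketone carrier Slc16a1 had the lowest p. CD163KO libraries had 6.44, 3.79 and 5.70 and WT libraries 3.10, 3.49, 2.93 and 1.34, without overlap, and the CD163KO library outside the fit had 1.15, below all of them (0.94 ± 0.39, edgeR, adjusted p = 1). Slc35b3, a second Golgi carrier of PAPS, had 11.9, 12.2 and 10.8 in CD163KO and 5.66 to 7.99 in WT (0.72 ± 0.35), and 5.59 in the library outside the fit. The glucose 6-phosphate carrier Slc37a4 was at 0.95 ± 0.43. In the other direction stood Slc26a11 (0.082, 0.771 and 0.796 in CD163KO, 1.43 to 3.10 in WT, -2.46 ± 1.10), Slc46a1 (-0.70 ± 0.33) and Slc24a3 (-0.92 ± 0.44). The library with Y-linked counts is 1 of the 3 CD163KO libraries here, and without it no member was called either.

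The third comparison asked whether fibrils change carriers relative to monomers. No member was called in macrophages or microglia by edgeR, DESeq2 or limma, and of all genes 0% were called by edgeR in either direction. At an unadjusted p under 0.05 there were 3 of 151 members in macrophages, all higher after PFF (1.99%, against 1.24% of all genes), and 13 of 153 in microglia (8 higher, 5 lower), 8.497% against 6.22% of all genes. The lowest adjusted p of a member was 1 in macrophages and 0.768 in microglia.

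In macrophages these 3 were Slc2a1, Slc16a10 and Slc7a8. Slc2a1 was higher after PFF in each of the 3 matched pairs while the groups overlapped, with a log2 fold change (PFF minus MONO) of 1.33 ± 0.43 (edgeR, adjusted p = 1). Slc16a10 had 4.65, 4.29 and 4.90 after MONO and 14.1, 10.04, 29.5 and 9.44 after PFF, without overlap, and 7.79 in the MONO library outside the fit (1.72 ± 0.58, edgeR, adjusted p = 1). Slc7a8 had 4.19, 2.36 and 2.84 after MONO and 7.59, 7.03, 11.2 and 7.55 after PFF (1.51 ± 0.62, edgeR, adjusted p = 1). The MONO library outside the fit had 14.3, above all PFF libraries, and with it the value was 0.80. The 8 neutrophil markers, all listed in every macrophage library, summed to a lower deposited FPKM after PFF in each of the 3 matched pairs of the fit. The sums were 94100 (MONO) and 30510 (PFF) in female CD163KO, 108600 and 20490 in female WT, and 112300 and 66290 in male WT, with 122700 in male CD163KO PFF and 75640 in the male CD163KO MONO library outside the fit, so that pair ran the other way. The 5 monocyte markers summed to 654 and 511, 1404 and 292, and 1647 and 1441 in the same order, and to 2872 (MONO, outside the fit) and 1122 (PFF) in male CD163KO. The part of neutrophils and monocytes in the macrophage values was not tested. Of lowest p among members lower after PFF were Slc2a3 (-0.89 ± 0.63), Slc25a37 (-2.74 ± 1.98) and Slc25a3 (-0.46 ± 0.34).

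In microglia the lowest p belonged to Slc24a5, a potassium-dependent sodium/calcium exchanger known from pigment cells. It had 5.33, 9.90 and 8.31 after MONO and 2.64, 2.56, 1.65 and 1.08 after PFF, without overlap (-1.92 ± 0.56, edgeR, adjusted p = 0.77), and 1.68 in the MONO library outside the fit. The zinc carrier of the Golgi, Slc30a5, had 12.4, 16.5 and 18.97 after MONO and 8.07, 7.12, 3.71 and 12.2 after PFF (-1.14 ± 0.34, edgeR, adjusted p = 0.77). The groups did not overlap, but the MONO library outside the fit had 4.05, and with it the value was -0.75. Slc25a46, a protein of the outer mitochondrial membrane, was at -0.81 ± 0.28.

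Higher after PFF were, by lowest p, Slc12a9, Slc25a22 and Slc25a39. Slc12a9 had 15.1, 10.9 and 7.20 after MONO and 27.5, 20.4, 12.8 and 29.02 after PFF, with overlap between groups and a higher PFF library in each of the 3 pairs (1.13 ± 0.35, edgeR, adjusted p = 0.77). The mitochondrial glutamate carrier Slc25a22 ran from 0.028 to 2.16 after MONO and from 1.43 to 9.38 after PFF (3.54 ± 1.19), and between 2.56 and 5.21 on the log2 scale when each library was left out. Slc25a39, which brings glutathione into mitochondria, was at 0.80 ± 0.27. The genotype by treatment term was not called for any member either (edgeR and DESeq2), with 1 of 151 in macrophages and 11 of 153 in microglia at an unadjusted p under 0.05. These are 0.662% of the members against 0.425% of all genes in macrophages, and 7.19% against 4.19% in microglia. The median SE of this term was 2.74 on the log2 scale in macrophages and 0.90 in microglia. Male CD163KO entered these fits only after PFF, and a missing call is no evidence that an interaction is absent.

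**Figure D5:**
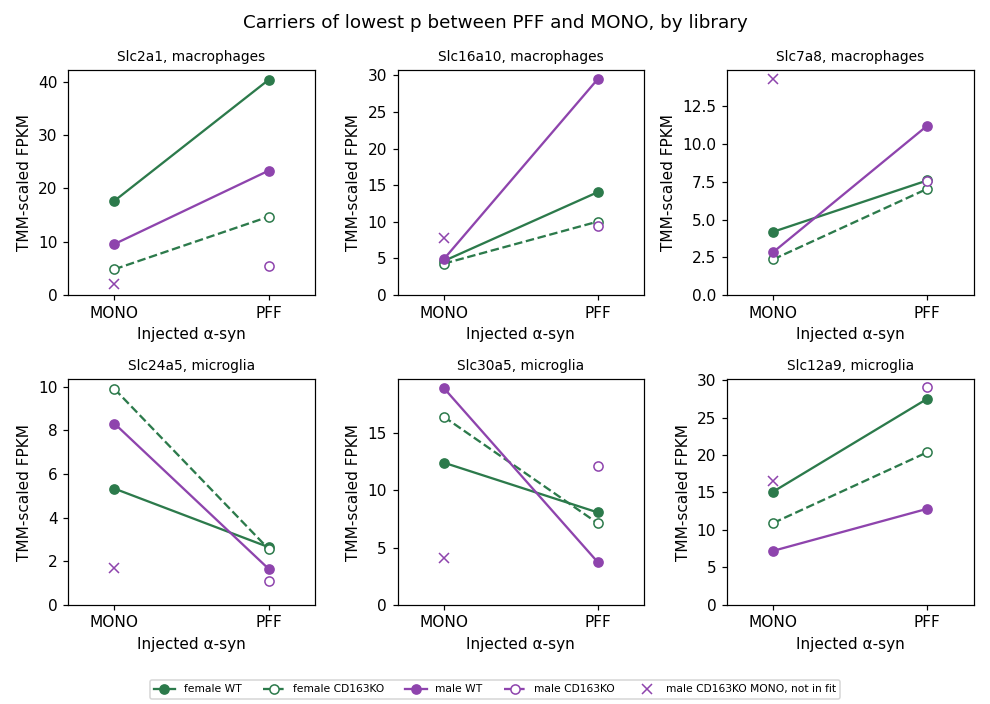
TMM-scaled FPKM (vertical axis, from 0) of the 3 carriers of lowest p between PFF and MONO in macrophages (top) and of 3 carriers of microglia (bottom), 1 point per library, with lines joining libraries of like sex and genotype. Crosses are the male CD163KO MONO libraries outside the fit, and that of Slc7a8 lies above all PFF libraries. In the 6 panels every joined pair moves the same way, but the genes were picked for low p on these same libraries. No gene passed the adjusted test.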

How the data were processed

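SMART-seq2 libraries of 8 macrophage and 8 microglia combinations were analysed. Per the methods, the authors mapped reads with Bowtie2 and estimated expression with RSEM, and the build is mm10 per the labels. The deposited estimated counts carry no normalization, and the deposited FPKM are scaled by the authors to transcript length and assigned reads. Transcripts missing from a table were taken as 0. Transcripts were summed to genes by RefSeq symbols (27627 of 27787 matched), and 71 members have more than 1 transcript. Reads of near-identical copies such as Slc22a21 or Slc25a5 may be shared between genes. Members, role groups and gene lists were chosen with earlier results of these data known.

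Summed counts were rounded and tested with edgeR 4.0.16 (quasi-likelihood, TMM) in R 4.3.3, over genes with a mean of at least 1 CPM. Population was fitted with sex, genotype and treatment, and genotype and treatment within each population. Errors are SE, computed from the fold change and the F statistic. DESeq2 1.42.0 and limma 3.58.1 were alternatives, and the procedure was tested on simulated data. Named were the called members, those of lowest p in each direction, the leader of each role group, all metal carriers and members next to the selection threshold. The labels name 2 batches of mice, and the methods report a batch correction and the removal of 3 outlier samples. Which library belongs to which batch is not given in the sources used here, so batch was not a term, and neither step was repeated. PCR copies were counted as reads. The split at 30% of counts was added after seeing the data.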

Additional observations from a re-analysis of the deposited data

Results flagged for a closer look

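Slc49a4, a gene of the lysosomal membrane, pointed opposite ways in the populations. In each of the 3 pairs of like sex and treatment, log2(scaled FPKM + 1) was lower in CD163KO than in WT macrophages (mean difference -1.411) and higher in CD163KO than in WT microglia (mean 0.42). The difference between populations was not tested, and the gene was not called in either.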

How the results depend on the processing

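The fits had 7 libraries per population, 1 per combination, with depths of 8648751 counts or more. The calls of genotype, treatment and their interaction stayed at 0 members in the alternatives run, which for the interaction were RLE scaling, DESeq2 and all libraries. The number of members called between populations moved with scaling and filter. Total counts without scaling gave 77 higher and 1 lower (all genes 38.9% and 4.95%), limma on log2(FPKM + 1) 103 and 3 (47.5% and 5.49%), limma on log2(FPKM + 0.1) 102 and 2 (50% and 5.9%), and no filter on counts 28 and 7 (8.01% and 6.91%). DESeq2 called 32 and 12 (16% and 15.9%), and libraries under 30% alone 28 and 8 (16.4% and 8.67%). The counts were 20 and 11 with RLE scaling (9.5% and 13.2%), 17 and 12 at 5 CPM or more (8.96% and 16.4%), 19 and 13 with all libraries (8.26% and 13.4%), and 19 and 11 with matched pairs of libraries as blocks (7.66% and 12.7%), which lost Slc15a2 and Slc46a1. Leaving out each library gave 13 to 35 higher and 10 to 14 lower (all genes 6.74% to 15.7% and 12.6% to 17.6%), with 35 without Macrophages male WT PFF. Signs turned for Slc31a2 (0.33, 0.29 and 0.29 with total counts and the limma fits), Slc31a1 (0.33, 0.32 and 0.33), Slc16a3 (0.28, 0.12 and 0.11) and Slc16a10 (0.17 with total counts). At an FPKM of 5 in 8 libraries 87 genes would be members, and at 1 in all 16 libraries 50. No paired analysis by replicate number was possible because each combination has 1 library. The cause of these shifts was not tested, except that total counts and FPKM by their construction leave out the scaling of composition.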

Other observations

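In microglia, 2 further members at an unadjusted p under 0.05 between PFF and MONO were Slc2a3 and Slc16a3. Slc2a3 had scaled FPKM of 0.823, 0.1 and 0.0170 after MONO and 1.76, 1.56, 2.23 and 1.06 after PFF, without overlap (log2 fold change 3.40 ± 1.25, edgeR adjusted p = 0.77). Slc16a3 had 4.42, 13.4 and 5.11 after MONO and 12.5, 21.8, 17.9 and 8.07 after PFF, with overlap (1.27 ± 0.48, adjusted p = 0.77). Neither passed the test over all genes.

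In each of the 3 pairs of like sex and genotype, 30 of 153 members (19.6%) were higher after PFF in microglia, against 15.5% of all genes, and 15 (9.80%) were lower, against 13.7%. In macrophages 19 (12.4%) were higher after PFF in each pair, against 9.15% of all genes, and 14 (9.15%) were lower, against 14.9%. Between genotypes, 29 members (19%) were higher in all 3 CD163KO pairs of microglia, against 16.5% of all genes, and 7 (4.58%) were lower, against 7.54%. In macrophages 10 members (6.54%) were higher in all 3 CD163KO pairs, against 13.8% of all genes, and 27 (17.6%) were lower, against 8.88%. These counts were not tested, and the genotype and treatment pairs are made of the same libraries.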
